A study of Rattus norvegicus with 24 samples.

Results

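The nucleus accumbens (NAc) was compared with the dorsolateral striatum (DLS) in rats that had been stressed during adolescence and had no other exposure. The comparison uses 6 of the 24 libraries of the series, 3 per region, chosen from the labels as the libraries from stressed offspring of saline-treated dams. The rats of all 24 libraries were Sprague-Dawley males, killed on postnatal day 90. The dams received saline or lipopolysaccharide (LPS), a bacterial component that triggers innate immunity, on gestational days 15 and 16. The offspring then went through unpredictable stress or handling. The 6 libraries used here thus share the prenatal saline injection and the adolescent stress, and differ in region. The other 18 libraries, again 3 per region and exposure, came from handled saline, handled LPS and stressed LPS offspring. Both regions were dissected by needle from 1 mm coronal slices and sequenced as bulk tissue after poly(A) selection. No label ties a library to a rat or a litter. It is therefore not known whether an NAc and a DLS library came from the same animal, and each p-value reflects only how these samples varied, which may be technical.

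The striatum is made mainly of GABAergic projection neurons. Those of the direct pathway carry the dopamine D1 receptor and the peptides dynorphin and substance P, and those of the indirect pathway carry the dopamine D2 receptor, the adenosine A2a receptor and enkephalin. The DLS receives sensorimotor cortex and serves habits and movement, whereas the NAc receives limbic cortex, hippocampus and amygdala and serves motivation and reward. A difference in bulk tissue between fewer cells of a type and less RNA per cell cannot be told apart.

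The deposited values are FPKM (fragments per kilobase of transcript, scaled to the depth of the library) whose decimal points had been lost, and places were restored here from the whole fragments behind them. A gene listed as 1 in that table was read as absent from the library. The 6 libraries held 5334386, 6881988 and 9336928 recovered fragments in DLS replicates 1 to 3, and 11517191, 11512946 and 9690924 in NAc replicates 1 to 3. Intervals and floors that rest on these fragments cover counting error only. NAc replicate 3 and DLS replicate 1 stood apart from the other 4, at 2.27 and 1.67 on the leading axis of variation within regions over the 24 libraries. DLS replicates 2 and 3 lay at -0.06 and 0.33, and NAc replicates 1 and 2 at -0.89 and -0.66. The DLS libraries of the other exposures lay between -1.68 and 1.35, so a spread of the size seen in the DLS is not particular to these rats. The NAc libraries of the other exposures lay between -0.68 and 1.29. NAc replicate 3 lay beyond them and was the highest of the 24 libraries. In NAc replicate 3 the levels of many genes lay between those of its region and those of the DLS. The libraries also fell into 2 sets by the transcript lengths used to make the FPKM. All 3 DLS libraries belong to one set and all 3 NAc libraries to the other, so within these 6 libraries the set and the region cannot be told apart. For the gene lists, counts are therefore also given from a fit of all 24 libraries with the set as a term.

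The dissections carried striatal markers in all 6 libraries. Drd1, which encodes the D1 receptor, measured 143, 106 and 121 FPKM in the DLS libraries and 130.3, 143 and 147 FPKM in the NAc libraries. The indirect-pathway gene Drd2 (D2 receptor) measured 165, 174 and 124 FPKM and 104, 98.5 and 75.5 FPKM. Cartpt, which encodes the peptide precursor CART and marks the ventral striatum, ranged up to 9.96 FPKM in the DLS and started at 155 FPKM in the NAc, so the region labels and this marker go together in every library. Genes of cortical glutamatergic neurons, 15 in number, summed to 75.6, 122 and 78.4 FPKM in the DLS and 144, 181 and 128 FPKM in the NAc, with none of the 15 absent from all 6 libraries. Choroid plexus genes, 11 in number, summed to 13.1, 13.0 and 26.0 FPKM in the DLS and 8.36, 7.91 and 9.81 FPKM in the NAc, and the plexus factor Otx2 was listed as absent in all 6. The cortical sum includes Slc17a7, whose decimal place was uncertain in DLS replicates 1 and 3 and NAc replicate 1. The plexus sum includes Ttr, the thyroxine carrier transthyretin, at 10.7, 9.57 and 17.9 FPKM in the DLS and 0.336, 0.775 and 0.633 FPKM in the NAc, with an uncertain place in NAc replicate 1. The part of neighbouring tissue in the results was not tested.

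In all, 2400 of 11131 tested genes differed between the regions at an adjusted p below 0.05 (21.6%, limma with Benjamini-Hochberg adjustment). Of these, 1391 were higher in NAc (12.5%) and 1009 were lower (9.06%). The larger differences were more often toward the NAc. Among the called genes, 976 were at least 2-fold higher in NAc and 396 at least 2-fold lower, and 309 were at least 4-fold higher against 32 at least 4-fold lower. All 2400 had 3 NAc libraries that did not overlap the 3 DLS libraries, which held for 46.7% of all genes tested. The median log2 difference over all tested genes was -0.01 and the median SE was 0.21. Centring each library on its median in place of the authors' scaling shifted every difference by -0.19 and gave 1174 higher and 1615 lower.

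These counts rest heavily on single libraries. Without NAc replicate 3 the test called 2973 higher (26.7% of genes) and 2755 lower (24.8%), and 2398 of the 2400 genes were called again in the same direction. Without DLS replicate 1 it called 111 (0.997%) and 83 (0.746%), and without NAc replicate 2 it called 45 and 38. The other single omissions gave 64 and 45 without NAc replicate 1, 492 and 227 without DLS replicate 2, and 182 and 129 without DLS replicate 3. Of the 2400 genes, 74 kept the call in all 6 of these fits, 42 higher and 32 lower. Their direction could not turn, since the libraries of the regions do not overlap. Of the genes described below those include Cartpt, Gda, March1, Pde1a, Npy2r, Htr2c, Htr5a, Gabra5, Mchr1, Sema3c and Cdh7 among the higher, and Cnr1, Tnni3, Clcf1, Krt17, Klk7, Cytip, Cacng1, Tnxa-ps1, Cd3e, Fblim1, Thrsp, Slc22a3, Hapln2 and Rasgrp2 among the lower. Each further gene described below as called lost the call without at least 1 library. The deposited loci of Ipcef1, Tnxa-ps1, Gpr52, Slc18a3, Rarres2, Clu, Mog, Timp2, Timp3, RT1-CE5, Chat and Nr3c1 overlap those of other genes, and their values are uncertain for that reason. With the length set as a term over 24 libraries, 629 genes of 10507 were higher (5.99%) and 547 lower (5.21%). Of the 2212 called genes tested there, 946 were called again in the same direction. Drd2, Gpr155, Chrna7 and Gria1 are among the genes described below that were not. Others include Grm5, Grm7, Kcnj10, Tnr, Mgll, Sfxn1, Kit, Aif1 and C1qa. Some leading genes were not tested in that fit, so their calls were not checked against the set. Among them are Cartpt, Drd3, Gabrb2, Chrm5, Htr5a, Adora2a, Ptpn5, Klk7, Krt17, Cytip and Clcf1. List counts given below are to be read against the shares of all genes called in the same fit.

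Among peptide genes the leading difference was in Cartpt (deposited locus chr2:49285117-49287138), whose product CART is a stimulant-responsive transmitter of accumbal neurons. It measured 4.29, 9.96 and 9.76 FPKM in DLS replicates 1 to 3 and 155, 190.4 and 464 FPKM in NAc replicates 1 to 3. Every NAc library was far above every DLS library, and here the library that stood apart, NAc replicate 3, was the highest. The log2 difference was 4.98 (SE 0.50, adjusted p = 0.0079), and it kept its call without any 1 library. Pdyn (chr3:127809951-127822294), the precursor of dynorphin and a direct-pathway gene, measured 72.8, 84.1 and 79.5 FPKM in the DLS and 173, 212 and 239 FPKM in the NAc. The groups lay well apart, with a log2 difference of 1.39 (SE 0.17, adjusted p = 0.0105). The call of Pdyn was lost in 1 of the 6 fits that left out a library.

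The sequences 250 bases before the annotated starts of these genes are shown because they are the peptide genes with the clearest regional difference and the first members of the list by p. They are the RefSeq sequences of build GRCr8, which is not the build of the deposited loci, at chr2:32991236-32991485 for Cartpt and chr3:137366504-137366753 for Pdyn, both on the minus strand and printed 5′ to 3′. Capitals mark matches to the cAMP response element, CRE (TGACG or CGTCA, which together make TGACGTCA), and to a TATA box (TATAAA), searched on both strands.
Cartpt: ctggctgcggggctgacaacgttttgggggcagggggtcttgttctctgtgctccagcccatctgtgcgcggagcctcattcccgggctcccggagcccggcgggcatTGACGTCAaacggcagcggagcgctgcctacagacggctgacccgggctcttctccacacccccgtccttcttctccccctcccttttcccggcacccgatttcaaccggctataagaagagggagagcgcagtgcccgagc
Pdyn: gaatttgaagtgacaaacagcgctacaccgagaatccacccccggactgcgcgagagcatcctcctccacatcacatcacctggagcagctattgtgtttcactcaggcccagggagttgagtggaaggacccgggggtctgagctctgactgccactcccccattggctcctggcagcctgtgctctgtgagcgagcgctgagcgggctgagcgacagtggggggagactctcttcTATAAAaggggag
The Cartpt window holds 1 full CRE, a pair of overlapping matches that begin 142 and 139 bases before the start, and no TATAAA. The Pdyn window holds no match to the CRE and 1 TATAAA, which begins 13 bases before the start. Of 33469 windows of the same length, 1.59% hold the full CRE, 18.2% a CRE match of 5 letters and 12.9% the TATAAA. A match is a description of the letters only.

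**Figure D1:**
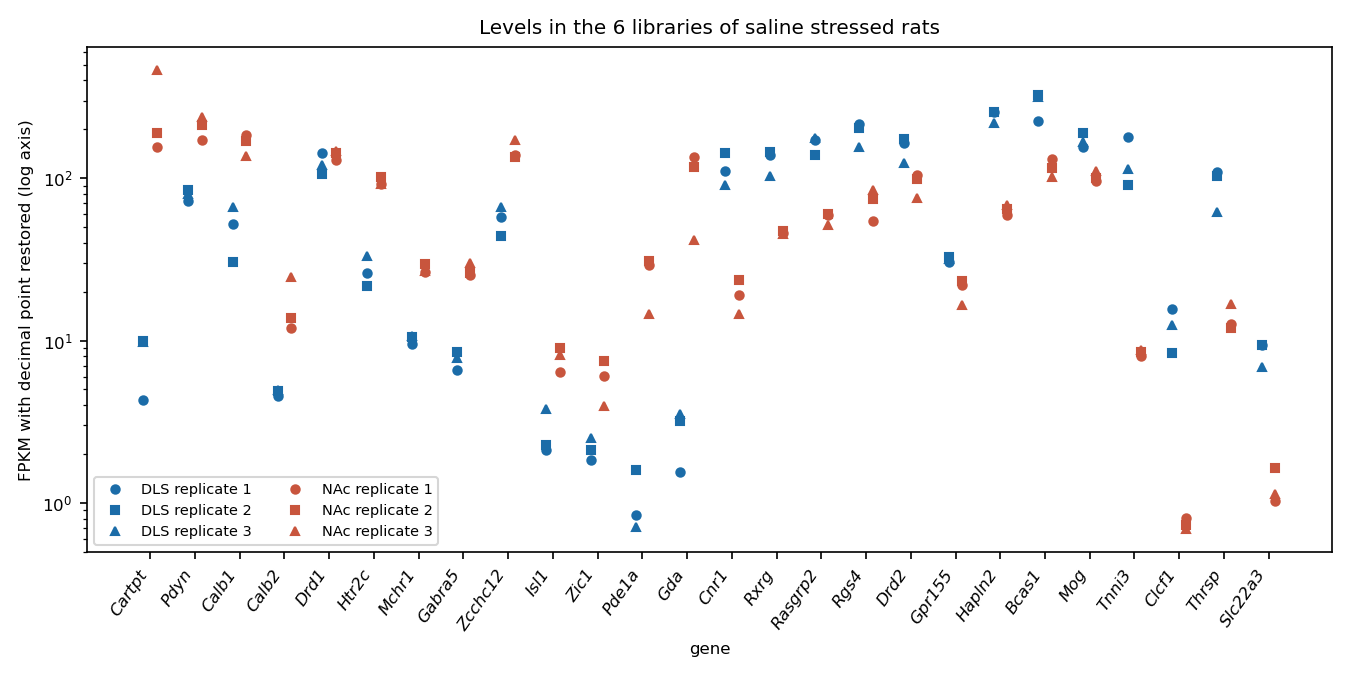
FPKM of leading genes in the 6 libraries, on a log axis, with 1 point per library, DLS in blue and NAc in red, and a marker shape for each replicate. Cartpt lies at or below 9.96 FPKM in the DLS libraries and at or above 155 FPKM in the NAc libraries, and Cnr1 at or above 91.3 FPKM in the DLS and at or below 23.8 FPKM in the NAc.

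The rest of the peptide list moved less. Of 37 peptide and granin genes 23 could be tested, and 4 were higher in NAc and 1 lower, with a median log2 difference of 0.17. Without NAc replicate 3 there were 5 higher and 7 lower of the 23, when 26.7% and 24.8% of all genes were called so. The list median was again 0.17 in that fit. With the length set 1 of 15 was higher and 2 lower. The other genes called higher were Scg2 (secretogranin II, 0.93) and Pcsk1 (a prohormone-cleaving protease, 1.24, adjusted p = 0.0248). Gal, which encodes galanin, measured 4.19, 6.21 and 7.73 FPKM in the DLS and 1.79, 2.11 and 2.16 FPKM in the NAc, a log2 difference of -1.50 (SE 0.24, adjusted p = 0.0171). Nts (neurotensin) measured 48.5, 67.9 and 59.7 FPKM and 49.9, 99 and 166 FPKM. Its groups overlapped and it did not pass (0.68, adjusted p = 0.248). Penk and Tac1, the enkephalin and substance P precursors, could not be read from the deposited digits and were not tested.

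The dopamine receptors that were tested did not move together. Drd3, which encodes the D3 receptor that marks the ventral striatum and the islands of Calleja, measured 0, 0.146 and 0.0518 FPKM in the DLS and 2.88, 3.62 and 0.838 FPKM in the NAc. Its level was low throughout, but each NAc library was above each DLS library, and the log2 difference was 3.81 (SE 0.57, adjusted p = 0.0148). Drd2 fell in NAc by 0.73 on the log2 scale (SE 0.20, adjusted p = 0.0465), close to the threshold and with no overlap between the groups. Drd1 gave a log2 difference of 0.19 (SE 0.16, adjusted p = 0.388) and its groups overlapped; with the length set as a term the difference was -0.03. The list of dopamine receptors and signalling genes had 19 tested members, 2 higher (Drd3 and Maoa) and 5 lower, with a median of 0.09. With the set as a term, 1 of 14 was higher and 2 lower, with a median of -0.03.

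The 5 lower members of that list included Rgs4, Ppp1r1b and Ptpn5. Rgs4, a GTPase-activating protein for G-protein signalling, measured 215, 203 and 156 FPKM in the DLS and 54.7, 74.8 and 85 FPKM in the NAc, without overlap, a log2 difference of -1.43 (SE 0.22, adjusted p = 0.016). Ppp1r1b (DARPP-32, the protein kinase A target of projection neurons) and Ptpn5 (the striatal-enriched phosphatase STEP) were read only relative to the gene's own mean. Ppp1r1b stood at 0.75, 0.53 and 0.33 log2 units from that mean in the DLS and at -0.74, -0.7 and -0.18 in the NAc, a difference of -1.08 (SE 0.21, adjusted p = 0.023). Ptpn5 differed by -1.07 (adjusted p = 0.0129). In both genes every NAc library was below every DLS library. Of 15 tested markers of projection neurons in general, 5 were lower and 0 higher, with a median of -0.39. Leaving out NAc replicate 3 gave 6 lower and 2 higher, with a median of -0.15, and with the set 3 of 12 were lower, with a median of -0.18. The members called lower included Rxrg, the retinoid X receptor gamma, at -1.47 and Ngef, a guanine nucleotide exchange factor, at -1.14.

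Of 8 tested direct-pathway markers, 3 were higher in NAc and 0 lower, with a median of 0.27. With the set as a term 2 of 8 were higher, with a median of 0.14, and the medians in the other exposure groups were -0.04, 0.06 and 0.0. The members called higher were Pdyn, Isl1, a transcription factor of direct-pathway neurons and cholinergic interneurons, and Sfxn1, a mitochondrial serine carrier. Isl1 measured 2.12, 2.29 and 3.78 FPKM in the DLS and 6.43, 9 and 8.16 FPKM in the NAc, without overlap, a log2 difference of 1.52 (SE 0.26, adjusted p = 0.0184). Ebf1, a transcription factor of the same list, measured 12.6, 4.96 and 8.49 FPKM and 4.54, 3.44 and 3.32 FPKM and did not pass (-1.10, adjusted p = 0.0598). Of 7 tested indirect-pathway markers, 4 were lower and 1 higher, with a median of -0.52. The set as a term left 1 of 6 higher and 1 lower, with a median of -0.20, and the medians in the other exposure groups were -0.48, -0.23 and -0.19. Adora2a (the adenosine A2a receptor) stood at 0.95, 0.64 and 0.28 log2 units from its mean in the DLS and at -0.67, -0.65 and -0.55 in the NAc, a difference of -1.24 (SE 0.20, adjusted p = 0.0163). Gpr52, an orphan receptor, measured 50.7, 39.8 and 40.6 FPKM and 22.7, 24.8 and 19.7 FPKM and differed by -0.96 (adjusted p = 0.0194). Drd2 and Gpr6 (-0.52, adjusted p = 0.0466) were the other 2 lower members. The exception was P2ry1, a purinergic receptor also found on glia, which measured 2.06, 1.7 and 3.27 FPKM and 19.5, 17.1 and 9.99 FPKM and was higher by 2.67 (adjusted p = 0.0106). The difference between the direct and indirect lists was not itself tested.

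Of 18 tested genes known from other work to mark the ventral striatum, 9 were higher in NAc and 1 lower, with a median of 0.84. With the set as a term, 4 of 13 were higher and 0 lower, with a median of 0.55, and without NAc replicate 3 there were 9 higher and 3 lower. Zcchc12, a zinc finger protein, measured 57.6, 44 and 66.4 FPKM in the DLS and 139.8, 135 and 172 FPKM in the NAc, a log2 difference of 1.42 (SE 0.20, adjusted p = 0.0129). Calb2 (calretinin) measured 4.53, 4.92 and 4.93 FPKM and 12, 13.7 and 24.8 FPKM, a difference of 1.72 (adjusted p = 0.0172). Zic1, a zinc finger transcription factor of the ventral forebrain, measured 1.82, 2.13 and 2.49 FPKM and 6.05, 7.44 and 3.98 FPKM, a difference of 1.36 (adjusted p = 0.0218). In these 3 genes every NAc library was above every DLS library. The other members called higher were Cartpt, Drd3, Gabrg1, Ahi1, Oprk1 and Npy1r. Hap1, which encodes a huntingtin-associated protein, was the member that was lower (-1.08, adjusted p = 0.0219).

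Dlk1, a Notch ligand family member of the ventral striatum, measured 0.666, 0.239 and 0.282 FPKM in the DLS and 42.9, 29.5 and 16.6 FPKM in the NAc. The decimal places of DLS replicates 2 and 3 were uncertain, so it was left out of the test.

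Of 15 tested genes known to mark the dorsal or lateral striatum, 8 were lower in NAc and 1 higher, with a median of -0.69. The set as a term left 3 of 13 lower and 0 higher, with a median of -0.73, and without NAc replicate 3 there were 10 lower and 3 higher. Cnr1 (chr5:53881981-53904008), the cannabinoid CB1 receptor that sits on the terminals of projection neurons, measured 111, 143 and 91.3 FPKM in the DLS and 19.2, 23.8 and 14.6 FPKM in the NAc. The lowest DLS library was well above the highest NAc library, with a log2 difference of -2.58 (SE 0.25, adjusted p = 0.00761). Read without the restored decimal places, on a circle of 1 decade, the same digits gave 0.73, so the direction of Cnr1 rests on the restored place. Rasgrp2, a guanine nucleotide exchange factor of striatal neurons, measured 171, 139 and 176 FPKM and 59.7, 60.0 and 51.4 FPKM, a difference of -1.50 (SE 0.16, adjusted p = 0.00818). Other lower members included Gpr155, Adora2a, Drd2, Gpr6 and Rem2, and the member that was higher was Sema3a. Gpr155, an integral membrane protein, measured 30.4, 32.5 and 31.6 FPKM and 22, 23.4 and 16.5 FPKM and differed by -0.63 (adjusted p = 0.0467).

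Of 32 tested transcription factors of regional identity, 5 were higher in NAc (Zic1, Foxp4, Isl1 and Bcl11a among them) and 3 lower (Nr2f1, Meis1 and Rxrg), with a median of 0.32. Bcl11a measured 6.23, 6.27 and 8.45 FPKM in the DLS and 16.2, 15.7 and 12.7 FPKM in the NAc, a log2 difference of 1.08 (SE 0.19, adjusted p = 0.0187). Meis1, a homeobox factor, was even within each region, at 10.9, 11.6 and 11.3 FPKM and 6.33, 6.66 and 6.17 FPKM, a difference of -0.81 (SE 0.13, adjusted p = 0.0163). Rxrg measured 139, 145 and 104 FPKM and 45.9, 47.1 and 45.6 FPKM. The share called higher was 15.6% and the share called lower 9.38%, against 12.5% and 9.06% of all genes. With the set as a term, 2 of 29 were higher and 3 lower.

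Receptors for peptides and monoamines that passed the test were nearly all higher in NAc. Of 22 tested neuropeptide receptors, 11 were higher and 0 lower, with a median of 0.83. Npy2r, a neuropeptide Y receptor that is mostly presynaptic, measured 0.138, 0 and 0.0701 FPKM in the DLS and 3.66, 3.5 and 1.53 FPKM in the NAc, a log2 difference of 4.14 (SE 0.43, adjusted p = 0.00801) on the log2(FPKM + 0.1) scale, which understates the change of a gene this low. Oprk1, the dynorphin-binding kappa opioid receptor, measured 1.27, 0.746 and 1.17 FPKM and 12.7, 14.3 and 4.25 FPKM, a difference of 3.03 (SE 0.47, adjusted p = 0.0163). Mchr1, the receptor for melanin-concentrating hormone, was tight in both regions at 9.52, 10.5 and 10.7 FPKM and 26.5, 29.7 and 26.9 FPKM, a difference of 1.43 (SE 0.14, adjusted p = 0.00747). Cckbr, a cholecystokinin receptor, measured 3.95, 4.57 and 5.38 FPKM and 10.9, 13.1 and 11.6 FPKM, a difference of 1.34 (adjusted p = 0.0107). The other members called higher were Oprl1, Tacr1, Npy1r, Npy5r, Sstr4, Calcrl and Oxtr. Oxtr, the oxytocin receptor, differed by 2.15 (adjusted p = 0.0235). Over 24 libraries with the length set, 5 of 18 were higher and 0 lower, with a median of 0.63.

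Of 23 tested receptors for serotonin, acetylcholine and adrenaline, 13 were higher and 1 lower, with a median of 1.11. Htr2c (serotonin 2C) measured 26.1, 21.6 and 33.1 FPKM in the DLS and 92.1, 102 and 92.5 FPKM in the NAc, a log2 difference of 1.84 (SE 0.19, adjusted p = 0.00794). It was the most abundant of the 4 members named by rule and had no overlap between regions. Htr5a measured 0.672, 0.375 and 0.418 FPKM and 3.83, 3.95 and 2.21 FPKM, a difference of 2.53 (adjusted p = 0.00918), and reading its digits on the circle turned the sign (-0.55). Chrna7, the alpha 7 nicotinic subunit, measured 0.299, 0.358 and 0.253 FPKM and 5.03, 4.68 and 1.78 FPKM, a difference of 3.16 (adjusted p = 0.0106). Chrm5, the M5 muscarinic receptor, measured 0, 0 and 0.0308 FPKM and 2.31, 2 and 0.558 FPKM and was absent from 2 DLS libraries. Htr1b, a presynaptic receptor, was higher by 2.06 (adjusted p = 0.0412). Chrm3 was the member that was lower (-1.25, adjusted p = 0.0198). In the fit with the set, 2 of 17 were higher and 1 lower, with a median of 0.72.

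**Figure D2:**
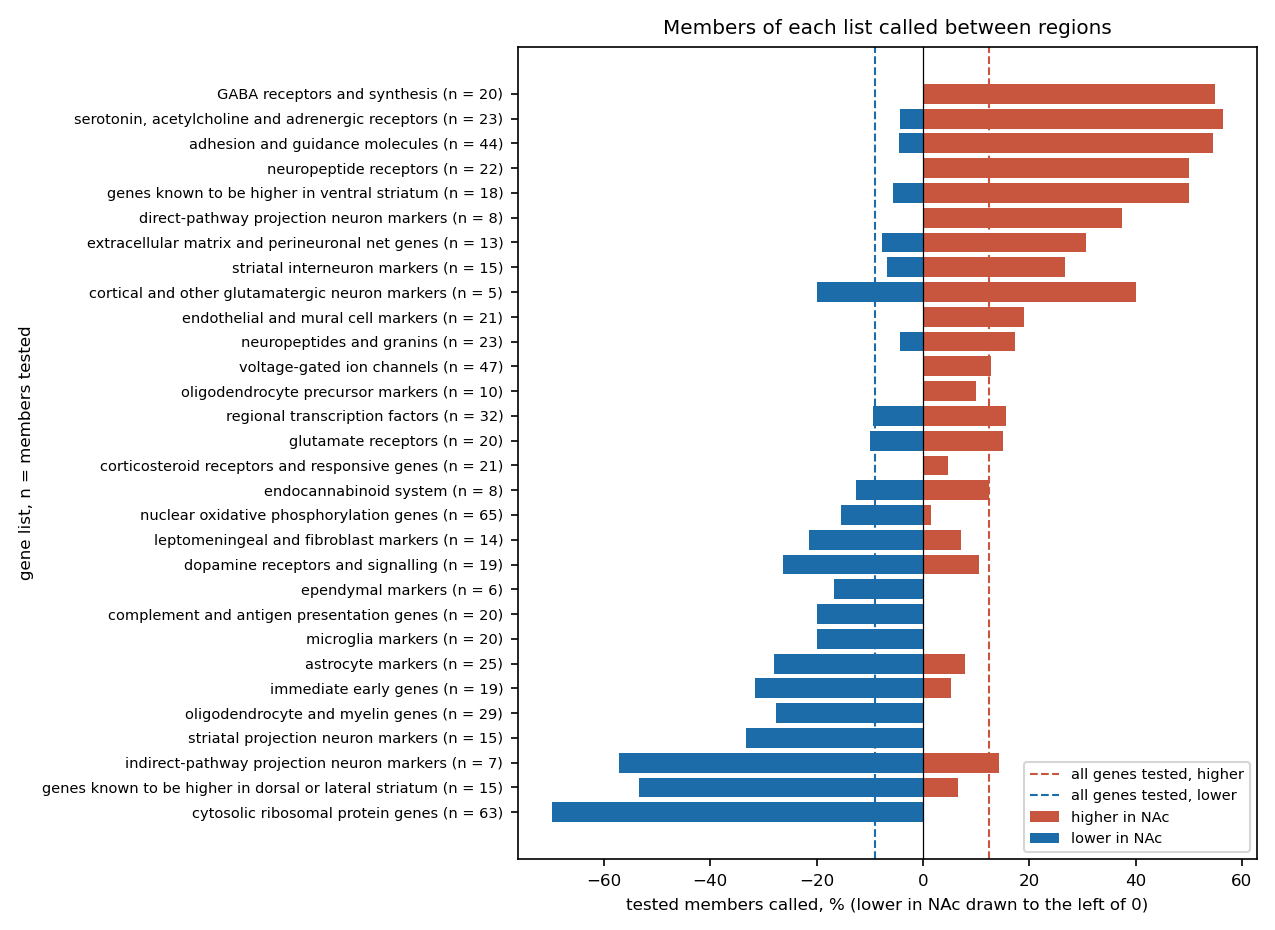
Number of tested members of each gene list called higher or lower in NAc, as a percent of the members tested, with the percent over all genes (12.5% higher and 9.06% lower) as lines. GABA, monoamine and acetylcholine receptor, peptide receptor and adhesion lists lie to the higher side, and the ribosomal protein list to the lower side with 44 of 63.

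GABA genes gave the highest median of the signalling lists. Of 20 tested, 11 were higher in NAc and 0 lower, with a median of 1.60. Gad2, one of the enzymes that make GABA, measured 26.5, 27.4 and 26.2 FPKM in the DLS and 253, 245 and 98.4 FPKM in the NAc. NAc replicate 3 lay between the other NAc libraries and the DLS, and the log2 difference was 2.77 (SE 0.37, adjusted p = 0.0119); on the circle the sign turned (-0.55). Gabra5, a subunit of extrasynaptic GABA-A receptors, was even within regions at 6.6, 8.53 and 7.83 FPKM and 25.4, 26 and 29.9 FPKM, a difference of 1.82 (SE 0.16, adjusted p = 0.00675). Gabrb2 measured 0.426, 1.15 and 1.03 FPKM and 26.8, 25.4 and 3.46 FPKM, with NAc replicate 3 far below the other 2 NAc libraries. Other members called higher included Slc6a11, Gabra2, Gabra3, Gabra4, Gabrg1 and Gabrg3. The members with values summed to 530, 519 and 503 FPKM in the DLS and 1385, 1344 and 795 FPKM in the NAc. Without NAc replicate 3, 17 were higher and 1 lower, and with the length set as a term 4 of 19 were higher, with a median of 1.35.

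Of 20 tested glutamate receptors, 3 were higher (Gria1, Grm5 and Grm7) and 2 lower (Grin2c and Grik5), with a median of 0.66. The shares of 15.0% and 10.0% were near the 12.5% and 9.06% of all genes. Gria1, the GluA1 subunit, measured 21.4, 32 and 22.8 FPKM in the DLS and 118, 109 and 51.5 FPKM in the NAc, a log2 difference of 1.80 (SE 0.35, adjusted p = 0.0231). Grm5, the mGluR5 receptor, measured 2.45, 4.12 and 3.67 FPKM and 61.5, 53.8 and 9.45 FPKM, with NAc replicate 3 near the DLS libraries. Grin2c measured 44.2, 73.4 and 55.9 FPKM and 29.9, 32.7 and 20.6 FPKM, a difference of -1.05 (adjusted p = 0.0365). Without NAc replicate 3, 11 of the 20 were higher and 2 lower, when 26.7% and 24.8% of all genes were called so. With the set 1 of 19 was higher and 2 lower.

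The endocannabinoid list had 8 tested members and a median of 0.02, with Cnr1 lower and 1 member higher. The latter was Mgll, the lipase that degrades 2-arachidonoylglycerol, at 21.5, 56.1 and 23.6 FPKM in the DLS and 134, 123 and 59.5 FPKM in the NAc (1.70, adjusted p = 0.0454). Daglb, a lipase that makes the same lipid, measured 12.4, 12.8 and 13 FPKM and 9.55, 10.1 and 9.8 FPKM and did not pass (-0.38, adjusted p = 0.068). With the set as a term, 0 of 8 were higher and 2 lower.

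The largest differences toward the NAc belonged to genes of varied kinds. Gda, which encodes the purine enzyme guanine deaminase, had the largest of all, at 1.55, 3.19 and 3.53 FPKM in the DLS and 134, 118 and 41.9 FPKM in the NAc, a log2 difference of 5.01 (SE 0.51, adjusted p = 0.00794). NAc replicate 3 was the lowest of the NAc libraries and still far above the DLS. Gpr101, an orphan receptor, measured 0.459, 0.989 and 0.534 FPKM and 31.8, 29.7 and 6.04 FPKM (4.63). March1, a membrane-bound ubiquitin ligase, measured 0.199, 0.142 and 0.202 FPKM and 8.84, 8.49 and 3.94 FPKM (4.60). Pde1a, a calmodulin-dependent phosphodiesterase, measured 0.839, 1.6 and 0.711 FPKM and 29.2, 30.9 and 14.6 FPKM (4.44). In these genes too the NAc libraries stood clear of the DLS, with adjusted p of 0.0129, 0.00402 and 0.00675 in that order. The 15 largest also held St3gal1 (4.57), Plcxd3 (3.90), Kantr (3.77), Ipcef1 (3.77), Atp2b4 (3.76) and Ntn1 (3.71), besides Cartpt, Npy2r, Gabrb2, Drd3 and Chrm5. The locus of Ipcef1 overlaps that of Oprm1.

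The largest differences toward the DLS were led by genes of low or moderate level. Tnni3, the cardiac troponin I gene, measured 178, 90.4 and 113 FPKM in the DLS and 8.05, 8.52 and 8.8 FPKM in the NAc, a log2 difference of -3.84 (SE 0.26, adjusted p = 0.00402). The NAc libraries were within 1 FPKM of each other and the DLS libraries varied more. Clcf1, a cytokine of the ciliary neurotrophic factor family, measured 15.7, 8.36 and 12.4 FPKM and 0.808, 0.733 and 0.686 FPKM (-3.82). Cytip, a regulator of cytohesins, measured 23.2, 21 and 16.9 FPKM and 0.987, 1.77 and 1.12 FPKM (-3.91). Thrsp, a regulator of lipogenesis, measured 109, 104 and 61.5 FPKM and 12.6, 12 and 16.8 FPKM (-2.69). The 15 also included Klk7 (-4.38), Krt17 (-4.24), Fgf8 (-3.75), Cacng1 (-3.50), Tnxa-ps1 (-3.38), Cd3e (-3.25), Fblim1 (-2.76), Pnmt (-2.73) and Slc22a3 (-2.67), besides Cnr1. Read on the circle, Thrsp (0.62) and Slc22a3 (0.55) turned in sign, as their 2 readings lie a factor of 10 apart.

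Adhesion and guidance genes were higher in NAc as a list. Of 44 tested, 24 were higher and 2 lower, with a median of 1.07. Sema3c, a secreted semaphorin, measured 1.28, 1.41 and 1.51 FPKM in the DLS and 4.31, 5.06 and 3.85 FPKM in the NAc, a log2 difference of 1.58 (SE 0.16, adjusted p = 0.0079). Cdh7, a type II cadherin, measured 1.09, 1.3 and 1.1 FPKM and 6.07, 6.39 and 3.65 FPKM, a difference of 2.08 (adjusted p = 0.00918). Epha7, an ephrin receptor, measured 4.07, 4.57 and 5.51 FPKM and 21.7, 26.1 and 13.5 FPKM, a difference of 2.05 (adjusted p = 0.0117). Slit2, a ligand of Robo receptors, measured 0.92, 1.23 and 1.84 FPKM and 6.07, 7.18 and 4.47 FPKM, a difference of 2.10 (adjusted p = 0.0122). No NAc library of these 4 genes overlapped the DLS. The members that were lower were Cdh9 (-0.69) and Ephb1 (-0.91). The median effective length of the list is 5847 bp against 3121 bp over the genes tested, which bears on the relation with length given below. With the length set as a term, 11 of 40 were higher and 1 lower, with a median of 0.78. When NAc replicate 3 was left out, 35 of the 44 were higher and 2 lower.

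Of 47 tested voltage-gated channels, 6 were higher and 0 lower, with a median of 0.50. The share higher was 12.8%, near the 12.5% of all genes. Without NAc replicate 3, 30 were higher and 2 lower, with a median of 0.96, and the share of all genes called higher was then 26.7%. The members with values summed to 772, 800 and 699 FPKM in the DLS and to 1272, 1206 and 670.3 FPKM in the NAc, so NAc replicate 3 was below all 3 DLS libraries. Kcnip4, an accessory subunit of A-type channels, measured 2.63, 2.84 and 4.87 FPKM and 22.9, 22.2 and 14.5 FPKM, a log2 difference of 2.52 (SE 0.29, adjusted p = 0.00923). Kcna5 measured 4.86, 5.06 and 5.27 FPKM and 16.2, 16 and 11.4 FPKM, a difference of 1.48 (adjusted p = 0.0103). Over 24 libraries with the length set, 1 of 44 was higher, with a median of 0.34.

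Of 13 tested genes of the extracellular matrix and perineuronal nets, 4 were higher (Tnr, Has3, Timp2 and Timp3) and 1 lower, and with the set 3 of 12 were higher and 1 lower. Has3, a hyaluronan synthase, measured 0.0574, 0.0825 and 0.0584 FPKM in the DLS and 2.51, 1.95 and 0.751 FPKM in the NAc, a log2 difference of 3.32 (SE 0.40, adjusted p = 0.0105). Hapln2, a link protein of the nodes of myelinated axons, measured 255, 257 and 219.7 FPKM and 58.9, 64.7 and 68 FPKM, a difference of -1.93 (SE 0.14, adjusted p = 0.00456). The regions lay far apart in Hapln2, but its sign turned on the circle (1.39).

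Myelin genes, when called, were lower in NAc. Of 29 tested oligodendrocyte genes, 8 were lower and 0 higher, with a median of -0.38. Mog, a myelin surface protein, measured 155, 189.7 and 168 FPKM in the DLS and 96.6, 99.8 and 111 FPKM in the NAc, a log2 difference of -0.73 (SE 0.15, adjusted p = 0.0248). Bcas1, of newly myelinating cells, measured 226, 324 and 317 FPKM and 130.5, 115 and 102 FPKM, a difference of -1.31 (adjusted p = 0.0146). Car2 (carbonic anhydrase 2) measured 300.5, 305 and 328 FPKM and 178, 194 and 207 FPKM, a difference of -0.69 (adjusted p = 0.0237). Others called lower included Gal3st1, Nkx6-2, Pllp and Qdpr. The members with values summed to 2808, 3471 and 3046 FPKM in the DLS and to 2154, 2189 and 2082 FPKM in the NAc, and the sums did not overlap. In the fit with the set, 6 of 29 were lower and 0 higher, and without NAc replicate 3 there were 9 lower and 2 higher. Of 10 tested genes of oligodendrocyte precursors only Tnr was called (0.898, 1.36 and 0.892 FPKM in the DLS and 18.5, 16.3 and 2.01 FPKM in the NAc), and Pdgfra did not pass (0.85, adjusted p = 0.057). Leaving out NAc replicate 3 gave 5 of the 10 higher and 1 lower, and with the set 0 were called.

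Of 25 tested astrocyte genes, 7 were lower (S100b, Gjb6, Apoe, Clu, Sox9, F3 and Hopx) and 2 higher (Slc4a4 and Kcnj10), with a median of -0.41. Hopx measured 76, 61.1 and 77.5 FPKM in the DLS and 28.2, 31.1 and 39.6 FPKM in the NAc, a log2 difference of -1.12 (SE 0.19, adjusted p = 0.0184). Kcnj10, the potassium channel Kir4.1, measured 3.27, 10.7 and 4.61 FPKM and 78.3, 73.5 and 17.9 FPKM, a difference of 3.08 (SE 0.67, adjusted p = 0.0301), with NAc replicate 3 nearest to the DLS. Gfap could not be read from the digits. With the length set as a term, 7 of 24 were lower and 0 higher, and without NAc replicate 3 there were 8 lower and 6 higher.

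Of 20 tested microglial genes, 4 were lower and 0 higher, with a median of -0.45. Calls went both ways without NAc replicate 3, with 8 lower and 5 higher. Aif1 (IBA1) measured 165, 127 and 98.1 FPKM in the DLS and 37.9, 31.8 and 73.2 FPKM in the NAc, a log2 difference of -1.51 (SE 0.35, adjusted p = 0.0332). C1qa, the start of the classical complement pathway, measured 257, 206 and 156 FPKM and 105, 89 and 123 FPKM, a difference of -0.95 (adjusted p = 0.0355). Tyrobp and Fcer1g, adaptor proteins of immune receptors, were the others. These are short transcripts (median effective length of the list 1562 bp), and with the length set as a term 1 of 18 was lower. Of 20 tested genes of complement and antigen presentation, 4 were lower (C1qa, Psmb8, RT1-A1 and RT1-CE5) and 0 higher, with a median of -0.59. When NAc replicate 3 was left out 8 were lower, and with the set 1 of 16 was. Genes of the RT1 family share sequence, so their fragments may have been split between copies.

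Endothelial and mural genes had 4 of 21 higher (Tek, Cdh5, Rgs5 and Notch3) and 0 lower, with a median of 0.29. Leaving out NAc replicate 3 gave 7 higher and 4 lower, and with the set 3 of 20 higher. Rgs5, of pericytes, measured 12.5, 26.4 and 20.8 FPKM in the DLS and 62.2, 65.9 and 40.5 FPKM in the NAc, a log2 difference of 1.53 (SE 0.32, adjusted p = 0.0276). Of 14 tested leptomeningeal and fibroblast genes, 3 were lower (Dcn, Igf2 and Ptgds) and 1 higher (Slc6a20), and with the set 2 of 12 were lower. Ptgds, a prostaglandin synthase of the meninges that is also made by oligodendrocytes, measured 567, 538 and 561 FPKM and 252, 289.8 and 300.3 FPKM, a difference of -0.99 (SE 0.14, adjusted p = 0.0126). Of 6 tested ependymal genes 0 were higher and 1, Rarres2, was lower (-0.93), while the median of the list was 0.92. The cilium regulator Foxj1 measured 2.01, 3 and 9.28 FPKM and 10.7, 8.48 and 10.1 FPKM (1.31, adjusted p = 0.102), and with the set it was the 1 of 4 members called higher (2.42, adjusted p = 0.0248). Of the 15 cortical neuron genes 5 could be tested, with Cux2 (1.63) and Lmo7 (1.30) higher and Lhx2 (-0.56) lower, and the single choroid plexus gene tested, Kcne2, did not pass (-0.42). With the set, 0 of the 5 cortical genes were called.

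Of 15 tested interneuron genes, 4 were higher (Calb2, Lhx6, Kit and Tacr1) and 1 lower, with a median of 0.23. With the set, 3 of 15 were higher and 0 lower, and without NAc replicate 3 there were 5 higher and 3 lower. The lower one, Slc18a3, is the vesicular acetylcholine transporter of cholinergic interneurons and measured 9.45, 8.43 and 5.58 FPKM in the DLS and 2.51, 3.88 and 4.53 FPKM in the NAc (-1.09, adjusted p = 0.0426). Its gene lies within that of Chat, the enzyme that makes acetylcholine. Chat measured 11.8, 7.49 and 6.67 FPKM and 3.92, 4.99 and 6.72 FPKM and did not pass (-0.71, adjusted p = 0.105). Pvalb (parvalbumin) measured 185, 129 and 85.2 FPKM and 25.1, 49.6 and 127 FPKM, with NAc replicate 3 inside the DLS range (-1.23, adjusted p = 0.157). Sst (somatostatin) measured 589.7, 339.7 and 358 FPKM and 317, 338 and 703 FPKM and overlapped (0.03, adjusted p = 0.964). Calb1, a calcium-binding protein of matrix projection neurons, measured 52.5, 30.3 and 66.3 FPKM and 184, 170.2 and 137 FPKM, a log2 difference of 1.78 (SE 0.30, adjusted p = 0.0187). In the other exposure groups Calb1 differed by 0.73, -0.12 and 0.35 (handled saline, handled LPS and stressed LPS).

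Activity-dependent genes were lower more often than higher. Of 19 tested immediate early genes, 6 were lower in NAc (Junb, Egr2, Egr4, Arc, Nr4a1 and Ier5) and 1 higher, with a median of -0.58. Leaving out NAc replicate 3 gave 8 lower and 4 higher, and with the set 3 of 19 were lower and 0 higher. Nr4a1, an orphan nuclear receptor, measured 99.4, 104 and 87.7 FPKM in the DLS and 43, 55.2 and 44.7 FPKM in the NAc, a log2 difference of -1.03 (SE 0.16, adjusted p = 0.0163). Egr2 measured 10.3, 11.5 and 11.8 FPKM and 3.75, 6.89 and 4.16 FPKM, a difference of -1.22 (adjusted p = 0.0246). Fosb was the one that was higher (1.23, adjusted p = 0.0397), and Fos did not pass at 18.4, 19.3 and 20.5 FPKM and 8.88, 17.3 and 12.6 FPKM (-0.63, adjusted p = 0.101).

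Of 21 tested corticosteroid receptors and responsive genes, 1 was higher and 0 lower, with a median of -0.20. The shares of 4.76% and 0.0% were below the 12.5% and 9.06% of all genes. When NAc replicate 3 was left out there were 5 higher and 1 lower, when 26.7% and 24.8% of all genes were called so. With the set 2 of 20 were higher. The gene that passed with all 6 libraries was Nr3c2, the mineralocorticoid receptor, at 4.49, 5.75 and 5.34 FPKM in the DLS and 13.9, 13.3 and 8.74 FPKM in the NAc, without overlap, a log2 difference of 1.17 (SE 0.22, adjusted p = 0.0219). With the length set as a term it differed by 1.04 (adjusted p = 0.00421). Nr3c1, the glucocorticoid receptor, measured 17.2, 18.6 and 17.9 FPKM and 25.5, 25 and 17.3 FPKM, and NAc replicate 3 lay inside the DLS range (0.32, adjusted p = 0.234). Without that library it passed, at 0.50 (adjusted p = 0.0183), as did 51.5% of all genes tested. Fkbp5, a glucocorticoid-induced cochaperone, measured 48.4, 39.6 and 33.3 FPKM and 37.8, 34.7 and 31.4 FPKM (-0.21, adjusted p = 0.4). Crhr1 (0.16) and Sgk1 (-0.24) did not pass either. The 95% interval of a log2 difference reached 0.49 to each side in the median gene, and larger differences than that can miss the threshold.

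Cytosolic ribosomal protein genes were lower in NAc as a list. Of 63 tested, 44 were lower and 0 higher, with a median of -0.98. Rps7 measured 1392, 958 and 937 FPKM in the DLS and 468, 436 and 654 FPKM in the NAc, a log2 difference of -1.08 (SE 0.23, adjusted p = 0.0298). The members with values summed to 97450, 61220 and 58100 FPKM in the DLS and 29490, 27510 and 44840 FPKM in the NAc. DLS replicate 1 was the highest and NAc replicate 3 was the NAc library nearest to the DLS. Of 65 tested nuclear genes of oxidative phosphorylation, 10 were lower and 1, Ndufs1, was higher, with a median of -0.88, and 59 were lower without NAc replicate 3. Cox8a measured 1702, 1478 and 1200 FPKM and 561, 598 and 949.7 FPKM, a difference of -1.08 (adjusted p = 0.0328). Over 24 libraries with the length set, 1 of 63 ribosomal genes and 2 of 64 oxidative genes were lower. Both medians were then -0.72, nearer to 0 than the -0.98 and -0.88 of the 6 libraries. The ribosomal genes Rpl7a, Rpl8, Rplp2, Rps6 and Rps9 are listed as absent in all 6 libraries, so a listing as absent can be a failed estimate.

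These lists are of short transcripts, with median effective lengths of 533 bp and 700.0 bp, and the difference between regions moved with length over all genes. In 5 equal bins of genes from shortest to longest, the median log2 difference was -0.50, -0.19, -0.02, 0.11 and 0.31. The share called lower in NAc was 17.3% in the shortest bin and 2.53% in the longest, and the share called higher 9.34% and 14.3%. Without NAc replicate 3 the medians ran from -0.67 to 0.45. The same order held in handled saline rats (-0.20 to 0.12), handled LPS rats (-0.50 to 0.35) and stressed LPS rats (-0.52 to 0.33). Within the NAc, replicates 1 and 2 had medians of -0.43 and -0.38 in the shortest bin, and replicate 3 had 0.10, on the side of the DLS libraries (0.42, 0.13 and 0.18). The GABA and peptide receptor lists have median lengths of 2698 bp and 3045 bp, and the genes tested 3121 bp. In the GABA list too, NAc replicate 3 lay toward the DLS. Its mean log2 levels relative to the 6 libraries were 1.09, 1.03 and 0.20 in NAc replicates 1 to 3. The part of length, or of what sets NAc replicate 3 apart, in the list results was not tested, for these 2 lists included.

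**Figure D3:**
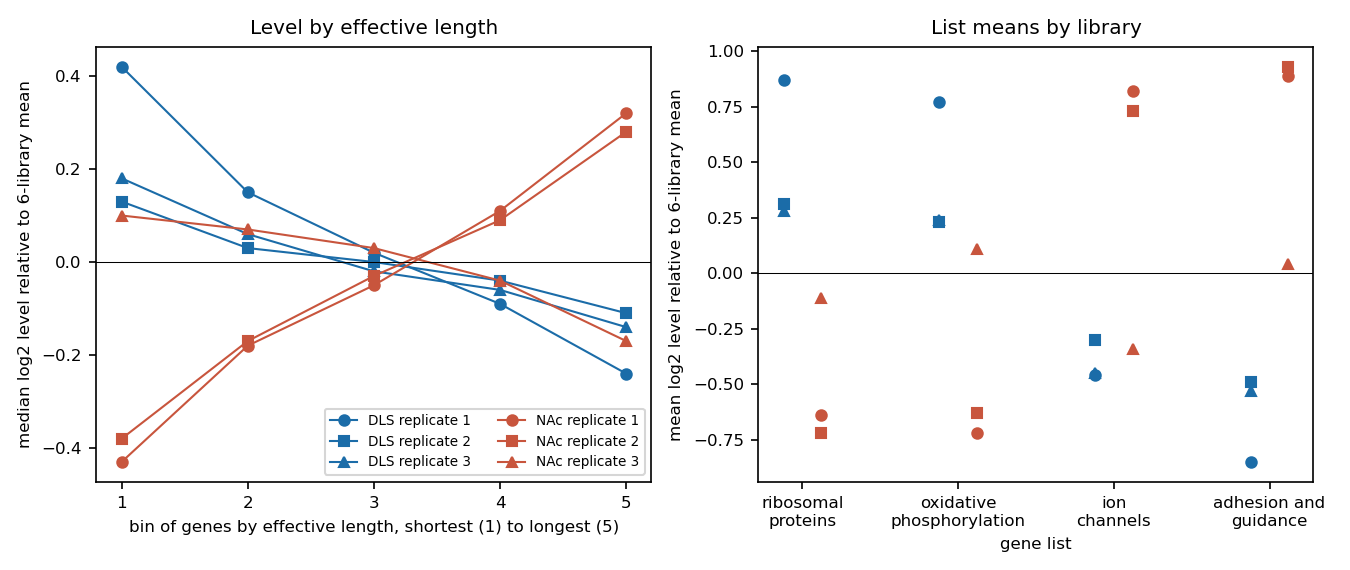
Median log2 level of each of the 6 libraries in 5 bins of effective transcript length, and mean log2 level of 4 gene lists in each library, both relative to the mean over the 6; DLS is blue, NAc red. NAc replicates 1 and 2 rise with length from -0.43 and -0.38, the DLS libraries fall from as high as 0.42, and NAc replicate 3 falls with the DLS from 0.10.

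Some genes were listed as absent in 1 region throughout. Of 17303 genes, 47 were above that mark in all 3 NAc libraries and in none of the DLS (0.272%), and 13 the reverse (0.0751%). The DLS libraries held fewer fragments and listed more genes as absent. These were 4463, 4250 and 4036 genes in DLS replicates 1 to 3 and 3945, 3971 and 4017 in NAc replicates 1 to 3. The part of depth in the 47 and 13 was not tested. Recovered fragments were few in most of these 47 and 13 genes. Htr1a, the serotonin 1A receptor, had 8, 32 and 22 fragments in the NAc libraries, and Cntnap5a, a neurexin family member, had 14, 18 and 3. Slc6a3, the dopamine transporter made in midbrain neurons, was also above the mark in the NAc only. Its digits were not turned into fragments, so it is not shown to exceed the limit given below. Cckar, a cholecystokinin receptor, had 4, 2 and 2 fragments. In the DLS direction Avpr1b, a vasopressin receptor, had 1, 2 and 4 fragments and Kiss1, the kisspeptin gene, 2, 2 and 1. A count of 0 allows up to 3 fragments per library. Htr1a was above that limit in all 3 NAc libraries and Cntnap5a in 2 of 3, whereas Cckar and Avpr1b exceeded it in 1 library each and Kiss1 in none. The limit takes no account of depth. On a common scale 1 fragment is worth 2.35 in DLS replicate 1 and 1.01 in NAc replicate 1. The 4 fragments of Cckar in NAc replicate 1 thus need not exceed what DLS replicate 1 allows. Agbl4, Apobec4, Capn13, Ccno, Cdh17 and Cidec were the other named genes of the NAc direction, and Adam30, Defb41, Dusp9, Gja6, Gp1bb, Gsta3, Krt19 and Napsa of the DLS direction.

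Most of the called differences had the same direction in rats with other exposures. Of 2376 called genes with values in all 24 libraries, 2350 (98.9%) differed in the same direction in all 3 other exposure groups. Among genes that were not called, 5836 of 8648 did (67.5%). Cartpt differed by 4.69, 4.24 and 6.25 on the log2 scale in handled saline, handled LPS and stressed LPS rats. Among the LPS libraries a decimal place of Cartpt was uncertain, so it was left out of the fit with the length set. Cnr1 differed by -2.45, -2.36 and -2.6, Pdyn by 1.07, 1.25 and 0.96 and Htr2c by 1.43, 1.71 and 1.61 in the same order. Gda differed by 3.32, 4.16 and 4.34, against 5.01 in the stressed saline rats. These groups use other libraries, but the decimal places were chosen with regional means over all 24 libraries, which favours a shared direction. The place of a gene that differs several-fold is therefore not separate evidence. Places in the other 18 libraries were not filtered by margin for these counts. The length gradient also ran the same way in them.

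**Figure D4:**
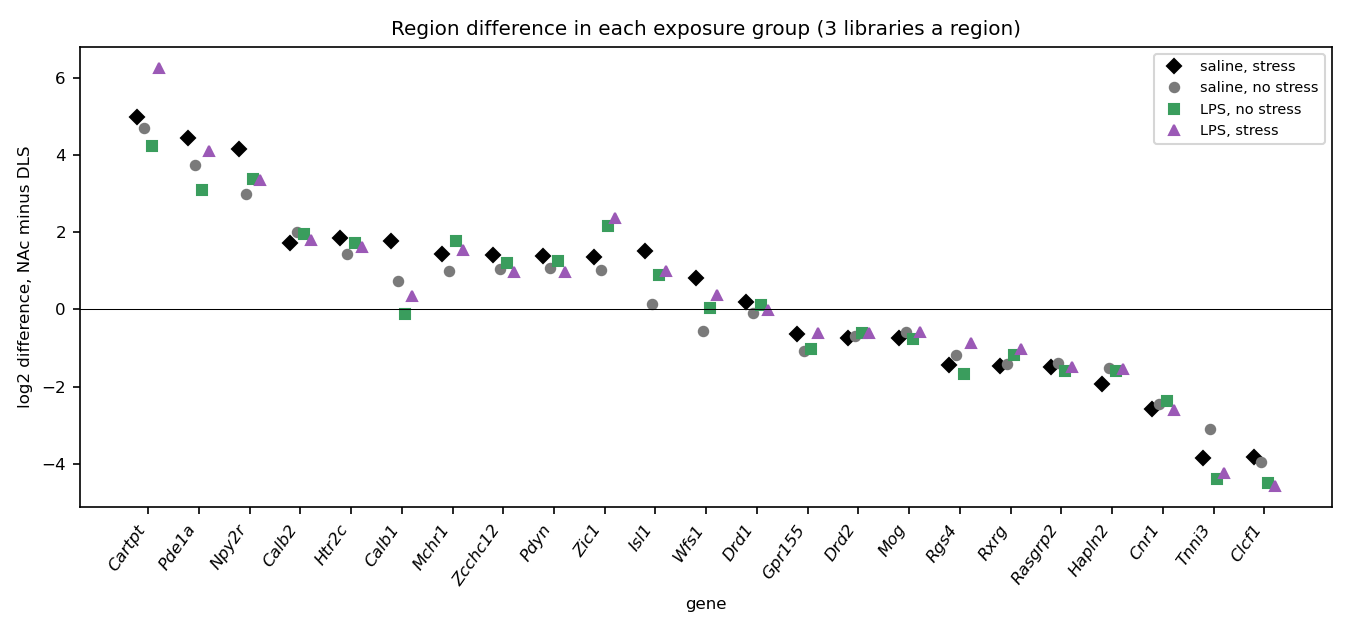
Log2 difference between NAc and DLS for named genes in each of the 4 exposure groups, 1 point per group from the means of 3 against 3 libraries. Cartpt lies between 4.24 and 6.25 in all 4 groups and Cnr1 between -2.60 and -2.36, so their direction is shared by stressed and handled rats. For Cartpt a decimal place was uncertain among the LPS libraries.

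No gene had a regional difference that changed with stress at an adjusted p below 0.05. As decimal places were chosen with regional means over all 24 libraries, a large difference confined to the stressed saline rats can be lost. Among the 12 saline libraries 0 of 10890 genes passed (0.0%) in the limma interaction test, with 422 at an unadjusted p below 0.05. That last count rested on single libraries, from 153 without NAc replicate 2 of the stressed rats to 3038 without their NAc replicate 3. The 10 smallest p belonged to Wfs1, March1, Isl1, Cyp4x1, Slc39a11, Pspn, Ldb2, Tspan8, Psmb8 and Rab5a, each at an adjusted p of 0.71. Isl1 differed between the regions by 1.52 in stressed and 0.14 in handled saline rats. March1 differed by 4.60 and 2.37, Pspn by -1.54 and -0.07, and Ldb2 by 1.39 and 0.24. With weights that count aberrant libraries less, 2473 genes were higher and 1749 lower in that test, but the weights did not converge.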

How the data were processed

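RNA of 24 bulk libraries was deposited as 1 table with a column per library, headed FPKM per the file headers. The submitters' processing notes name STAR (2.6.25.17) and Cuffdiff (2.2.1). What each was used for, and which annotation and build, is not given in the sources used here. Coordinates are printed as deposited. The deposited values are digits without a decimal point, recorded as a score: 415272 values for 17303 genes, of which 97026 are listed as 1 (absent) and 12, in 4 genes, are blank. No column of another sample was left unused (0).

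Each value is a whole number of fragments times a factor per library, divided by the gene's effective length. Solving for whole numbers recovered 11240 of the 12001 genes above 1 in all libraries (93.7%), with a largest relative misfit of 0.00086. Of 2000 genes tried, 1886 were solved with their own digits and 0 with digits shuffled among genes within each library. This returns the relative decimal place of each value; the power of 10 common to all genes was set so that the median effective length is 3261 bp, since the next place would make it 326 bp. The place of a library was chosen with regional means and 2 library factors over all 24 libraries. A gene with a place margin under 3 in any of the 6 libraries was left out. Recovered genes with a mean of at least 0.5 FPKM were used as log2(FPKM + 0.1), a scale that understates changes of low genes. Another 639 genes without recovered fragments were read as relative log2 values on a circle of 1 decade, within an arc of 0.5 decades. Among recovered genes within that arc, 280 of 8536 (3.28%) would be read differently on the circle.

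Regions were compared with limma 3.58.1 in R 4.3.3 (lmFit and eBayes without a trend), 3 libraries against 3, with Benjamini-Hochberg adjustment over 11131 genes and a threshold of 0.05. The interaction used the 12 saline libraries. Replicates were numbered in accession order. The procedure was tested on simulated data, in which many true differences, some of several fold, were not called. Fewer were called when placed in the NAc libraries of stressed saline rats alone than when placed in all NAc libraries. A gene that did not pass is therefore not shown to be equal between regions.

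Named genes were the 15 largest called differences each way, the 4 members of each list with the smallest p, a set of striatal, stress and glial genes, up to 10 genes listed as 1 in 1 region, and the 10 smallest interaction p. List members counted as called and named beyond that rule were named after their values were seen. The members and lists were chosen with earlier results of these data known, and the restoration of decimal places was chosen after the values were seen. Of 167 named genes, 119 had an entry in the RefSeq promoter table. Some genes within the rule are not reported here.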

Additional observations from a re-analysis of the deposited data

Results flagged for a closer look

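Wfs1, the endoplasmic reticulum protein wolframin, was flagged because its regions were apart in opposite directions in stressed and handled saline rats. In stressed saline rats every NAc library was above every DLS library (log2 difference 0.81, adjusted p = 0.0495), and in handled saline rats the order was reversed, at -0.56. The interaction of region and stress was 1.37 (SE 0.26), with an adjusted p of 0.71 over all genes, so the difference did not pass the threshold. The gene was read on the circle, without recovered fragments.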

How the results depend on the processing

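Counts of genes higher and lower in NAc (1391 and 1009) kept within 1.5 times under other pseudocounts, filters, place margins, arcs, robust or trended moderation, limma-voom on fragments, and recovered genes only. They moved further with median centring (1615 lower), array weights (3832 and 3811; the weights did not converge), the spread of all 24 libraries (2411 and 2383) or of the 12 saline ones (2377 and 2170). A ribosomal covariate gave 0 and 0 in the 6 libraries by limma, with 1581 at an unadjusted p below 0.05, and 419 and 531 over 24 libraries. The length set as a covariate gave 629 and 547, and reading all genes on the circle gave 511 higher. Leaving out 1 library gave 45 to 2973 higher and 38 to 2755 lower. The interaction stayed at 0 calls without any 1 library, with 153 to 3038 genes at an unadjusted p below 0.05, and array weights gave 2473 and 1749. Genes listed as absent in 1 region numbered 437 (above in NAc) and 168 (above in DLS) when 2 of 3 libraries sufficed, and 67 to 132 and 23 to 30 without 1 library.

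Among single genes 28 values reversed. With the ribosomal covariate over 24 libraries these were Gpr17 (-0.32), Ndufa1 (0.06), Pde10a (-0.56), Nr3c1 (-0.21) and Slc39a11 (-0.21), and over 6 libraries Rorb (-0.66), Gpr17 (-0.68), Pvalb (0.94), Chat (0.38), Pde10a (-0.95), Nr3c1 (-0.20) and Sgk1 (0.17). With the length set they were Drd1 (-0.03), Sgk1 (0.05) and Crhr1 (-0.15). On the circle they were Thrsp (0.62), Slc22a3 (0.55), Cnr1 (0.73), Htr5a (-0.55), Gad2 (-0.55), Ccdc153 (-0.31) and Hapln2 (1.39); there the reading itself drops the restored decimal place. Sst gave -0.17 with array weights and -0.16 with median centring, where Crhr1 gave -0.03, and -0.34 to 0.28 without 1 library (below 0 without DLS replicate 2, DLS replicate 3 or NAc replicate 3). For the other reversals the cause was not tested. No paired analysis was possible because the labels give no replicate numbers shared between the regions. Depth limits genes of a few fragments, and 3 libraries a region with 1 standing apart in each limit the calls.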
